A study of Drosophila melanogaster with 9 samples.

Results

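The gustatory receptor (Gr), gustatory receptor-like (Grl), odorant receptor (Or) and ionotropic receptor (Ir) genes of *Drosophila melanogaster* were examined in whole testes. They were chosen by name, as all genes whose current symbol starts with Gr, Grl, Or or Ir followed directly by a digit, and each gene was represented by its brightest probe set that names no other gene. Of 195 such genes in the RefSeq annotation, 173 were measured in this way (56 Gr, 8 Grl, 56 Or and 53 Ir), out of 11982 genes measured in all. A further 7 genes (*Gr64b*, *Gr64c*, *Gr64d*, *Gr64e*, *Ir75d*, *Or19a* and *Or19b*) were covered only by probe sets that name several genes, and for 15 genes no probe set was named here. All 173 are annotated as protein-coding.

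Testes of 3 genotypes were hybridised to Affymetrix Drosophila Genome 2.0 arrays, 3 arrays each, and each array received RNA from its own pool of males (30 per the labels, 25 per the methods). Knockdown males (*bam*>>*tbrd-2*RNAi, labelled bam/y;+/+;bam/*tbrd-2*RNAi) carried 2 copies of the *bam*-Gal4 driver, on chromosomes X and III, and 1 copy of a hairpin against *tbrd-2*, which encodes a testis-specific bromodomain protein. *bam*-Gal4 control males (bam/y;+/+;bam/Sb) carried the same 2 driver copies and no hairpin, and undriven control males (+/+;*tbrd-2*RNAi/Sb) carried 1 hairpin copy and no driver. Both controls, but not the knockdown, thus had a chromosome III marked with *Sb*. All crosses, controls included, were kept at 30°C, and males were 0 to 2 days old. The *bam* promoter drives Gal4 in the dividing germline cells that precede the spermatocytes, whereas whole testes also hold somatic cells.

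Values are log2 expression values made by RMA, which corrects background, equalizes the arrays and summarizes the probes of a probe set. The array medians lay between 5.86 and 5.96. The *tbrd-2* transcript was at 8.06, 7.82 and 8.05 in the knockdown arrays, at 10.52, 10.52 and 10.73 in *bam*-Gal4 and at 10.19, 10.39 and 10.36 in undriven testes, so all 3 knockdown arrays lay below all 6 control arrays. Spermatocyte and spermatid markers were bright everywhere, with 21 of 22 at a mean of at least 6. Their list means were between 10.61 and 10.71 in the knockdown arrays and between 10.37 and 10.57 in the control arrays. By the limits used below, 2 of the 22 were higher in the knockdown against both controls and none lower. Of all probe sets, 0.454% were called higher and 0.354% lower against both. The 2 markers were *mia* (log2-fold changes 1.89 and 1.48 against *bam*-Gal4 and undriven) and *Taf12L* (1.13 and 1.05). A rise of *sa* (0.61 and 0.97) missed only the limit on the size of the change. Accessory gland transcripts varied between arrays in every genotype (list means 10.22 to 11.82 in knockdown, 8.15 to 12.03 in *bam*-Gal4 and 9.24 to 10.60 in undriven arrays), and so did gut transcripts in knockdown (4.88 to 6.33) and undriven arrays (5.11 to 6.23). Of these, the arrays highest in accessory gland or gut transcripts were knockdown replicate 3, *bam*-Gal4 replicate 2 and undriven replicate 3. Results below were also computed without these 3 arrays. The arrays kept still differed in accessory gland transcripts. Their list means were 10.95 and 10.22 in knockdown, 8.15 and 10.17 in *bam*-Gal4 and 10.60 and 9.24 in undriven testes. Leaving out the 3 arrays thus did not balance this tissue between the genotypes.

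Odorant and gustatory receptors are insect chemoreceptors of a shared superfamily with several membrane passes, and form ion channels in the sensory neurons of antenna, palp, labellum, leg and wing. Most odorant receptors work together with the co-receptor Orco. Ionotropic receptors are relatives of ionotropic glutamate receptors and work with the co-receptors Ir25a, Ir8a or Ir76b. Some gustatory receptors also act outside the classical sense organs, in gut and brain.

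Most receptor transcripts were low in testes. The median over the 173 genes of the mean over the 9 arrays was 4.22, with a lowest value of 3.12 and a highest of 7.10, against a median of 7.17 over all 11982 genes. A mean of at least 6, close to the median of each array, was reached by 13 receptors (7.51%), against 65.4% of all genes. The share was 5 of 56 for Gr (8.93%), 1 of 8 for Grl (12.5%), 4 of 56 for Or (7.14%) and 3 of 53 for Ir (5.66%). Of the remaining genes, 66 had a mean under 4, 74 between 4 and 5, and 20 between 5 and 6, and 89 of the 173 (51.4%) fell below the lower quartile of all probe sets, 4.26. Values of different probe sets also depend on their probes, so that the level of one gene is not an amount relative to another, and a value around 4 does not show that a transcript was absent.

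**Figure D1:**
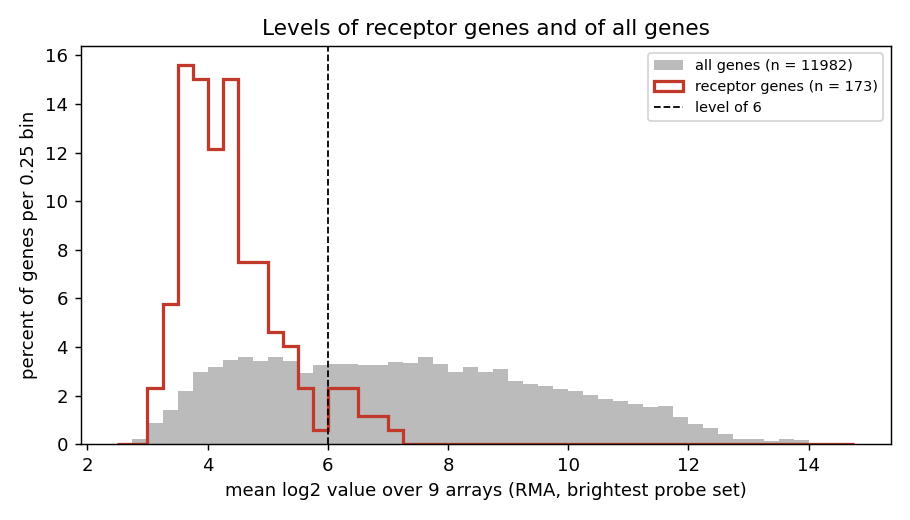
Percent of genes (vertical axis) by mean log2 value over the 9 arrays (horizontal axis, bins of 0.25) for all 11982 genes (grey) and the 173 receptor genes (red line). The receptor genes lie mainly between 3 and 5, and 13 of them reach the dashed line at 6.

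The 13 receptors with a mean of at least 6 were *Gr32a*, *Gr64f*, *Gr63a*, *Gr22a* and *Gr5a*, the gustatory receptor-like gene *Grl40a*, the odorant receptors *Or47a*, *Or22b*, *Or94a* and *Or65c*, and the ionotropic receptors *Ir85a*, *Ir41a* and *Ir76a*. Of these, 7 had a mean of at least 6 in all 3 genotypes (*Gr32a*, *Gr64f*, *Gr22a*, *Grl40a*, *Or47a*, *Or22b* and *Ir41a*). The other 6 reached it through 1 or 2 genotypes: *Ir85a* and *Ir76a* through both controls, *Or94a* and *Gr63a* through knockdown and undriven testes, *Or65c* through the knockdown and *Gr5a* through *bam*-Gal4. Genes of this second kind had to differ between genotypes to some degree, and counts over the 13 are therefore a description only. Just inside the limit were *Gr5a* (6.01) and *Gr22a* (6.04), and just outside were *Ir100a* (5.96) and *Gr59f* (5.69). The 13 genes lay on the arms 2L (4 of 34 receptor genes), 2R (2 of 47), 3L (4 of 31), 3R (2 of 40) and X (1 of 21).

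**Figure D2:**
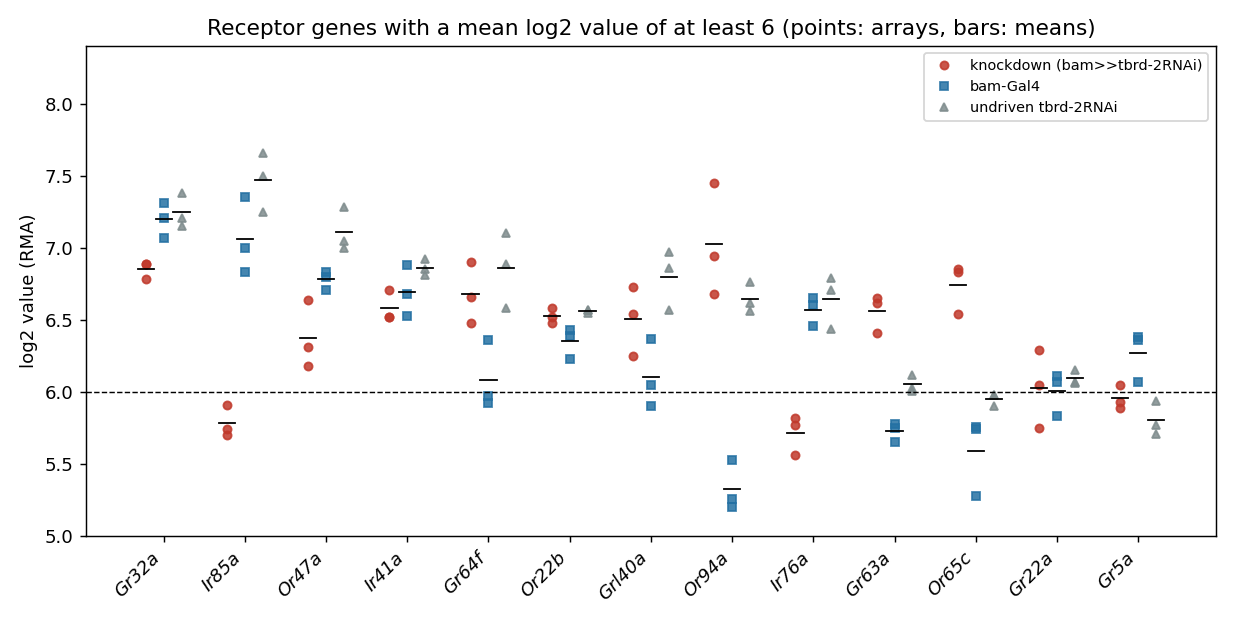
Log2 value (vertical axis) of each of the 9 arrays for the 13 receptor genes with a mean of at least 6, with knockdown as red circles, *bam*-Gal4 as blue squares, undriven as grey triangles, black bars as genotype means and the dashed line at 6. The knockdown arrays lie apart from all control arrays for *Ir85a*, *Ir76a*, *Gr32a* and *Or47a* (below) and for *Gr63a* and *Or65c* (above).

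The question for each receptor was whether it differed in the knockdown from both controls. Calls followed the limits of the study's methods, with an adjusted p below 0.05 and a change of 1 or more on the log2 scale. Against *bam*-Gal4, 5 of the 173 receptors were called (2.89%; 1.29% of all 18952 probe sets). *Ir85a* and *Gr93d* were lower (0.496% of all probe sets were called lower), and *Or94a*, *Or65c* and *Gr23a* were higher in the knockdown (0.791% called higher). Against undriven testes, only *Ir85a* and *Gr93d* were called (1.16% of receptors; 1.26% of all probe sets), both lower (0.628% called lower, 0.633% higher). These 2 genes were thus called lower against both controls, against 0.354% of all probe sets. Both genes lie on 3R. For them and all other receptors, the knockdown cannot be told apart from the *Sb*-marked chromosome III, which only the controls carried. No receptor was called higher against both, against 0.454% of all probe sets. By limma's adjusted p alone, 8 of the 173 receptors were higher against both, as were 7.19% of all probe sets. Among the 13 receptors with a mean of at least 6, only *Ir85a* was called against both controls (1.17% of all genes at this level).

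*Ir85a*, on 3R, encodes a divergent ionotropic receptor and showed the largest fall among the 13. Its log2 values were 5.91, 5.74 and 5.70 in the knockdown, 7.35, 6.83 and 7.0 in *bam*-Gal4 and 7.66, 7.50 and 7.25 in undriven testes. All knockdown arrays lay below 6 and all control arrays above it. Relative to *bam*-Gal4 it fell by 1.28 (log2), or 2.42-fold (95% interval −1.60 to −0.95, SE 0.14, adjusted p = 0.000393), and by 1.69 against undriven, or 3.22-fold (−2.01 to −1.36, adjusted p = 9.64e-05). The 2 controls differed by −0.41 (*bam*-Gal4 minus undriven, adjusted p = 0.285). Without the 3 arrays high in accessory gland or gut transcripts the changes were −1.35 and −1.75. In whole testes, fewer cells of a type and less RNA per cell cannot be told apart, here and for all genes below.

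*Ir85a* overlaps the protein-coding genes *Pif1A* and *Pif1B* in the annotation. *Pif1A* had means of 9.84, 9.86 and 10.03 in knockdown, *bam*-Gal4 and undriven testes, and its log2-fold changes in the knockdown were −0.02 and −0.19 against *bam*-Gal4 and undriven. *Pif1B* had no probe set named here. The genes next to it, *CG33189* (−0.01 and −0.08) and *CCT7* (−0.09 and 0.00), did not pass the test either.

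*Ir76a* and *Ir41a*, which serve amine detection in antennal neurons, were the other ionotropic receptors of at least 6. *Ir76a* was at 5.77, 5.82 and 5.56 in the knockdown, at 6.65, 6.46 and 6.60 in *bam*-Gal4 and at 6.79, 6.71 and 6.44 in undriven testes, and the knockdown arrays did not overlap with the controls. The log2 difference to *bam*-Gal4 was −0.85 (1.81-fold lower, adjusted p = 0.000672), and that to undriven testes −0.93 (1.91-fold lower, SE 0.11, adjusted p = 0.000439), past the adjusted p but below the fold limit. The probe set is of a type that can match several transcripts, and *CG14102*, which overlaps *Ir76a*, had differences of 0.02 and −0.08. *Ir41a* was at 6.52, 6.71 and 6.52 in the knockdown, at 6.88, 6.53 and 6.68 in *bam*-Gal4 and at 6.92, 6.85 and 6.81 in undriven testes. These values overlapped between knockdown and *bam*-Gal4, with differences of −0.11 (interval −0.33 to 0.10, adjusted p = 0.474) and −0.28 (−0.49 to −0.06, adjusted p = 0.0763). The level of *Ir41a* rested on 1 of its 3 probe sets, since the others had means of 4.29 and 3.85.

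*Gr32a* encodes a bitter receptor of labellar and leg neurons that also acts in the inhibition of courtship between males, and it was the only receptor with a mean above 7. It was at 6.89, 6.78 and 6.89 in the knockdown, at 7.31, 7.07 and 7.21 in *bam*-Gal4 and at 7.38, 7.15 and 7.21 in undriven testes. The knockdown arrays lay below all control arrays, but the differences were small: −0.34 (SE 0.09, adjusted p = 0.0214) against *bam*-Gal4 and −0.39 (adjusted p = 0.0116) against undriven. Against *bam*-Gal4 the adjusted p rose to 0.0725 without knockdown replicate 2, to 0.065 and 0.0709 without *bam*-Gal4 replicates 1 and 3, and to 0.0531 without the 3 arrays high in other tissues. *CG6230*, which overlaps *Gr32a*, had means of 10.76, 10.79 and 10.95 in knockdown, *bam*-Gal4 and undriven testes and differed by −0.03 and −0.19, without passing the test. Beside *Gr32a*, *Dnaaf4* was higher by 0.33 against *bam*-Gal4 (adjusted p = 0.0181) but did not pass against undriven (0.15, adjusted p = 0.223).

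*Gr63a* forms the carbon dioxide receptor of antennal neurons together with *Gr21a*. It was at 6.62, 6.65 and 6.41 in the knockdown, at 5.65, 5.75 and 5.78 in *bam*-Gal4 and at 6.12, 6.01 and 6.03 in undriven testes, with the knockdown arrays above all controls. The rise was 0.83 against *bam*-Gal4 (1.78-fold, SE 0.08, adjusted p = 0.000163) and 0.51 against undriven (1.42-fold, adjusted p = 0.00213), below the fold limit. Its partner *Gr21a* had a mean of 4.25 and differences of −0.02 and 0.07 (adjusted p = 0.82 and 0.405). Of the genes beside *Gr63a*, *Lamtor4* was higher in the knockdown by 0.40 and 0.44 (adjusted p = 0.0132 and 0.00812) and *Fie* had differences of −0.13 and −0.25 that did not pass.

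The sugar receptors *Gr64f*, a co-receptor for most other sugar receptors, and *Gr5a*, which detects trehalose, did not differ from both controls in the same direction. *Gr64f* was at 6.66, 6.90 and 6.48 in the knockdown, at 5.92, 5.97 and 6.36 in *bam*-Gal4 and at 6.58, 7.10 and 6.89 in undriven testes. It was higher than in *bam*-Gal4 by 0.60 (SE 0.17, adjusted p = 0.034) but overlapped with undriven testes (−0.18, adjusted p = 0.502), and the first of these no longer passed with renewed quantile normalization (adjusted p = 0.073), median centring (0.0521) or array weights (0.0671), without any of 4 single arrays, or without the 3 arrays high in other tissues (0.114). *CG11593*, which overlaps *Gr64f*, had means of 8.14, 7.86 and 7.71 and differed by 0.29 and 0.43 (adjusted p = 0.0889 and 0.019). *Gr5a* was at 5.89, 6.05 and 5.93 in the knockdown, at 6.38, 6.07 and 6.36 in *bam*-Gal4 and at 5.94, 5.71 and 5.77 in undriven testes. Its differences of −0.31 (interval −0.54 to −0.09, adjusted p = 0.0579) and 0.15 (−0.07 to 0.37, adjusted p = 0.338) did not pass. An antisense RNA gene, for which no probe set was named here, overlaps *Gr5a*.

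*Gr22a* belongs to a cluster of receptors of bitter-sensing neurons, and *Grl40a* to the receptor-like genes. *Gr22a* was at 6.29, 6.05 and 5.75 in the knockdown, at 5.83, 6.11 and 6.07 in *bam*-Gal4 and at 6.15, 6.06 and 6.07 in undriven testes. The knockdown arrays spanned all controls, and the differences were 0.03 (−0.27 to 0.32) and −0.06 (−0.36 to 0.23). *Grl40a* was at 6.54, 6.73 and 6.25, at 6.37, 6.05 and 5.90 and at 6.97, 6.57 and 6.86 in the same order, with differences of 0.40 (0.04 to 0.76, adjusted p = 0.122) and −0.29 (−0.65 to 0.07, adjusted p = 0.242). The knockdown thus lay between the controls. Beside *Grl40a*, *CG31601* was lower in the knockdown by both comparisons (−0.30 and −0.24, adjusted p = 0.0149 and 0.0371).

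Among the odorant receptors, *Or94a*, a receptor of larval olfactory neurons, varied most. It was at 6.94, 7.45 and 6.68 in the knockdown, at 5.20, 5.26 and 5.53 in *bam*-Gal4 and at 6.76, 6.62 and 6.56 in undriven testes. The *bam*-Gal4 arrays lay apart from both other genotypes, which overlapped. *Or94a* rose by 1.69 in the knockdown against *bam*-Gal4 (3.23-fold, interval 1.30 to 2.09, SE 0.18, adjusted p = 0.000259) and fell by 1.32 in *bam*-Gal4 against undriven (2.49-fold, adjusted p = 0.00456), while knockdown and undriven testes differed by 0.38 (−0.02 to 0.77, adjusted p = 0.174). The neighbouring *Or94b* (mean 4.47) had differences of −0.16 and −0.12, the overlapping *Nha2* −0.02 and −0.04, and neither passed.

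*Or65c* is expressed with *Or65a* and *Or65b* in a class of antennal neurons. It was at 6.85, 6.83 and 6.54 in the knockdown, at 5.74, 5.76 and 5.28 in *bam*-Gal4 and at 5.90, 5.98 and 5.98 in undriven testes, and no array overlapped between knockdown and controls. It rose by 1.15 against *bam*-Gal4 (2.21-fold, SE 0.13, adjusted p = 0.000466) and by 0.79 against undriven (1.73-fold, adjusted p = 0.00338), and only the first met the fold limit. Without *bam*-Gal4 replicate 3 that value was 0.99, just below the limit. *Or65a* and *Or65b* had means of 4.16 and 3.99, and *Or65b*, the gene beside *Or65c*, differed by −0.01 and −0.08.

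*Or47a* encodes an antennal receptor for fruit esters. It was at 6.64, 6.31 and 6.18 in the knockdown, at 6.83, 6.71 and 6.80 in *bam*-Gal4 and at 7.05, 7.28 and 7.0 in undriven testes, lowest in all 3 knockdown arrays. It was lower by 0.73 than in undriven testes (log2-fold change −0.73, SE 0.12, adjusted p = 0.00282), and by less against *bam*-Gal4 (−0.40, adjusted p = 0.0456). The latter passed narrowly: over the alternatives its adjusted p ranged from 0.00979 to 0.176, and it was above 0.05 with the replicate number as a block (0.0626) and without each of 7 single arrays. *Cpr47Ea*, which overlaps *Or47a*, had differences of −0.23 and −0.02 that did not pass. *Or22b*, a tandem copy of *Or22a*, was at 6.58, 6.52 and 6.48, at 6.43, 6.23 and 6.39 and at 6.57, 6.57 and 6.55 in knockdown, *bam*-Gal4 and undriven arrays. Its differences of 0.18 (0.02 to 0.33, adjusted p = 0.106) and −0.04 (−0.19 to 0.12, adjusted p = 0.746) did not pass, and *Or22a* (mean 5.13) had differences of 0.10 and −0.03.

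Over all 173 receptors, 16 passed the adjusted p against both controls in the same direction (9.25%, against 13.1% of all probe sets), 8 lower (5.88% of all probe sets) and 8 higher (7.19%). The lower genes were *Ir85a*, *Gr93d*, *Ir76a*, *Grl36b*, *Gr33a*, *Or47a*, *Or83c* and *Gr32a*, and the higher genes were *Gr23a*, *Or65c*, *Gr63a*, *Ir7c*, *Or67b*, *Gr47a*, *Ir56a* and *Gr36a*. With the adjusted p alone, 20 receptors differed from *bam*-Gal4 (8 lower and 12 higher; 11.6%, against 18.6% of all probe sets) and 26 from undriven testes (15 lower and 11 higher; 15%, against 19.1%). Of the 13 receptors with a mean of at least 6, 6 passed against both controls, against 22.8% of all genes at that level. In 28 receptors (16.2%) the knockdown arrays did not overlap with the 6 control arrays, against 23.7% of all probe sets, and 6 of these had a mean of at least 6 (36.6% of all genes at that level). The median log2-fold change over the receptors was −0.04 against *bam*-Gal4 and −0.07 against undriven testes, against 0.01 and 0.00 over all genes, and 159 of 173 (91.9%) differed by less than 0.5 in either comparison (88.5% and 88.4% of all genes). No adjusted p under 0.05 was found in any comparison for 143 receptors.

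**Figure D3:**
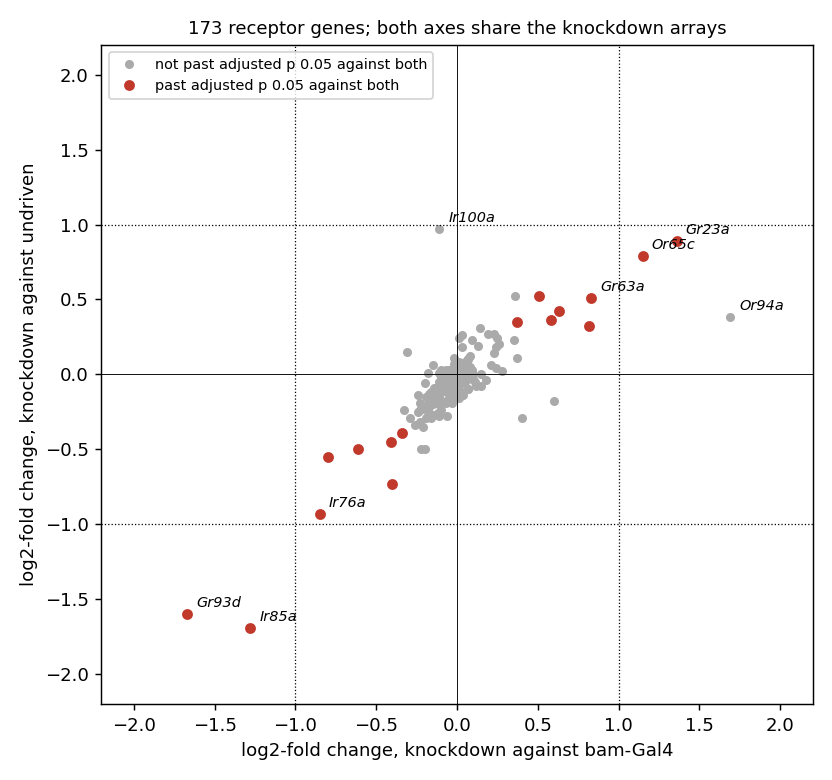
Log2-fold change of each of the 173 receptor genes in the knockdown against *bam*-Gal4 (horizontal axis) and against undriven testes (vertical axis), with the 16 genes past the adjusted p of 0.05 against both in the same direction in red and dotted lines at −1 and 1. Both axes share the knockdown arrays. *Ir85a* and *Gr93d* lie beyond −1 on both axes, and no gene lies beyond 1 on both.

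*Gr93d*, a gustatory receptor gene on 3R, had the largest fall of any receptor against *bam*-Gal4, at a mean of 4.91. It was at 3.72, 3.67 and 4.06 in the knockdown, at 5.53, 5.49 and 5.45 in *bam*-Gal4 and at 5.37, 5.53 and 5.36 in undriven testes, with no control array below 5.36 and no knockdown array above 4.06. The log2 difference to *bam*-Gal4 was −1.67 (3.19-fold lower, interval −1.91 to −1.44, SE 0.10, adjusted p = 2.15e-05) and that to undriven testes −1.60 (3.04-fold lower, −1.84 to −1.37, adjusted p = 2.84e-05), and the controls differed by 0.07. Without the 3 arrays high in other tissues the values were −1.79 and −1.75. *Gr93a*, *Gr93b* and *Gr93c*, of the same cluster, had means of 4.41, 3.54 and 4.32 and did not pass the test. *Gr93c*, the gene beside it, had differences of −0.03 and 0.02, and *glec*, on the other side, 0.08 and −0.03. An antisense RNA gene with no probe set named here overlaps *Gr93d*.

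*Gr23a*, on 2L, was at 5.51, 5.89 and 5.43 in the knockdown, at 4.51, 4.01 and 4.24 in *bam*-Gal4 and at 4.58, 4.68 and 4.90 in undriven testes, higher in all knockdown arrays than in any control. It rose by 1.36 against *bam*-Gal4 (2.56-fold, SE 0.16, adjusted p = 0.000431) and by 0.89 against undriven (adjusted p = 0.00391). The result depended on the probe set. The second of its 3 probe sets, with a mean of 4.70, gave rises of 0.68 (adjusted p = 0.00888) and 0.47 (0.046), and the differences of the third, 0.21 (0.16) and 0.19 (0.194), did not pass.

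The other receptors below 6 that passed against both controls did so with smaller differences. *Grl36b* was at 4.97, 5.22 and 5.05 in the knockdown against 6.04, 5.57 and 6.03 in *bam*-Gal4 and 5.72, 5.66 and 5.52 in undriven testes (−0.80, adjusted p = 0.00262, and −0.55, adjusted p = 0.0168), whereas *Grl36a*, which the study names as *CG31750*, was between 4.05 and 4.22 in all arrays (−0.05, interval −0.19 to 0.10, and −0.03, interval −0.17 to 0.12). *Gr33a*, a co-receptor for bitter compounds, was at 3.58, 3.86 and 3.88 in the knockdown and between 4.15 and 4.48 in the controls (−0.61, adjusted p = 0.00754, and −0.50, adjusted p = 0.0197). *Or83c*, the antennal receptor for farnesol, lay between 4.68 and 4.85 in the knockdown and between 5.13 and 5.31 in the controls (−0.41 and −0.45, adjusted p = 0.004 and 0.00261). In all of these, as in the higher genes, the knockdown arrays did not overlap with the controls.

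Of the higher genes, *Ir7c*, which takes part in the sensing of high salt in the labellum, was at 5.08, 5.30 and 5.18 in the knockdown, at 4.37, 4.43 and 4.31 in *bam*-Gal4 and at 4.87, 4.85 and 4.87 in undriven testes. Its rise was 0.82 against *bam*-Gal4 (adjusted p = 9.95e-05) and 0.32 against undriven (adjusted p = 0.0111), and *bam*-Gal4 lay below undriven (−0.49, adjusted p = 0.00635). The bitter receptor genes *Gr47a* (0.63 and 0.42, adjusted p = 0.0063 and 0.0394) and *Gr36a* (0.37 and 0.35, adjusted p = 0.00916 and 0.0134), together with *Or67b* (0.51 and 0.52, adjusted p = 0.00659 and 0.0059) and *Ir56a* (0.58 and 0.36, adjusted p = 0.00609 and 0.0488), were higher as well. Of the 16 genes, 8 did not pass the adjusted p against 1 or both controls under at least 1 alternative (*Gr32a*, *Gr33a*, *Gr36a*, *Gr47a*, *Grl36b*, *Ir56a*, *Ir7c* and *Or47a*). *Ir56a* and *Gr47a* rested on the full set of arrays: each missed the threshold against undriven testes when any of 8 of the 9 arrays was left out, with adjusted p of up to 0.141 and 0.115. *Gr36a* missed it against both controls without the 3 arrays high in other tissues (adjusted p up to 0.129), and *Ir7c* against undriven testes (0.0838).

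**Figure D4:**
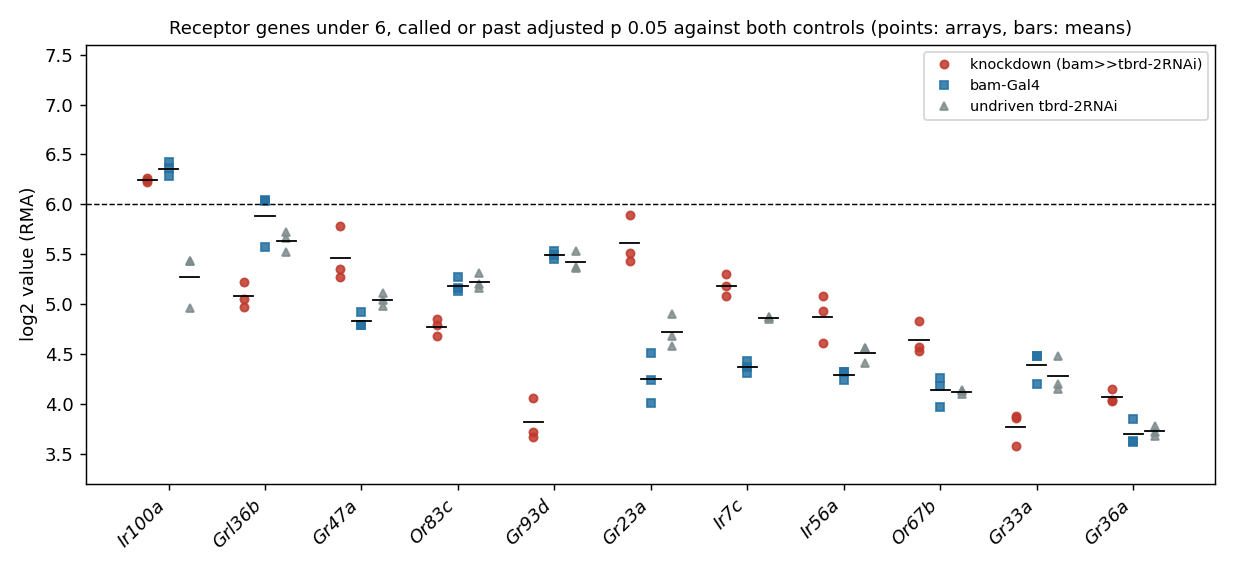
Log2 value (vertical axis) of each of the 9 arrays for the 11 receptor genes with a mean under 6 that were called in a comparison or passed an adjusted p of 0.05 against both controls, with symbols and bars for the genotypes as in the plot of the 13 genes of at least 6. The knockdown arrays of *Gr93d* lie between 3.67 and 4.06 and its control arrays between 5.36 and 5.53, whereas for *Ir100a* the undriven arrays stand apart.

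The 2 controls differ in driver and hairpin, and their comparison gives the differences between testes without a knockdown. Of 173 receptors, 2 were called (1.16%; 0.380% of all probe sets). *Or94a*, given above, was lower in *bam*-Gal4 than in undriven testes (0.206% of all probe sets called lower), and *Ir100a*, another divergent ionotropic receptor, was higher (0.174%). By the adjusted p alone, *Ir7c* was the only further one (3 receptors, 1.73%, against 2.08% of all probe sets). *Ir100a* was at 6.22, 6.24 and 6.26 in the knockdown, at 6.28, 6.36 and 6.42 in *bam*-Gal4 and at 5.43, 5.43 and 4.96 in undriven testes. The 2 genotypes with the driver differed by −0.11 (knockdown minus *bam*-Gal4, adjusted p = 0.566), and both lay above undriven testes, *bam*-Gal4 by 1.08 (2.11-fold, SE 0.12, adjusted p = 0.00146) and the knockdown by 0.97 (adjusted p = 0.000595). Without undriven replicate 3 the difference between the controls was 0.92, and the call was lost. *CG42233*, which overlaps *Ir100a*, differed by 0.16 and −0.05 in the knockdown, and the neighbouring *CG1971* was lower in the knockdown by both comparisons (−0.58 and −0.50, adjusted p = 0.000143 and 0.000302).

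None of the overlapping or adjacent genes measured beside the 6 called receptors was called itself. The nearest genes not given above (*haf*, *Gr22b*, *CG31933*, *Tmtc1*, *Idua*, *CG44102*, *Cpr47Eb*, *Rcd5*, *CG13300*, *SREBP*, *TORIP*, *Gbp3* and *CG42449*) differed by between −0.31 and 0.42 in the knockdown, and none passed the adjusted p against either control. Among the 13 receptors of at least 6, 7 overlap another annotated gene (53.8%) and 6 a protein-coding one (46.2%), and in 4 the overlapping gene had a brighter probe set. Among the 160 receptors below 6, 39 overlap an annotated gene (24.4%), 32 a protein-coding one (20%), and 26 a gene with a brighter probe set. Whether RNA of an overlapping gene contributed to the signal of the receptor probe sets was not tested.

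**Figure D5:**
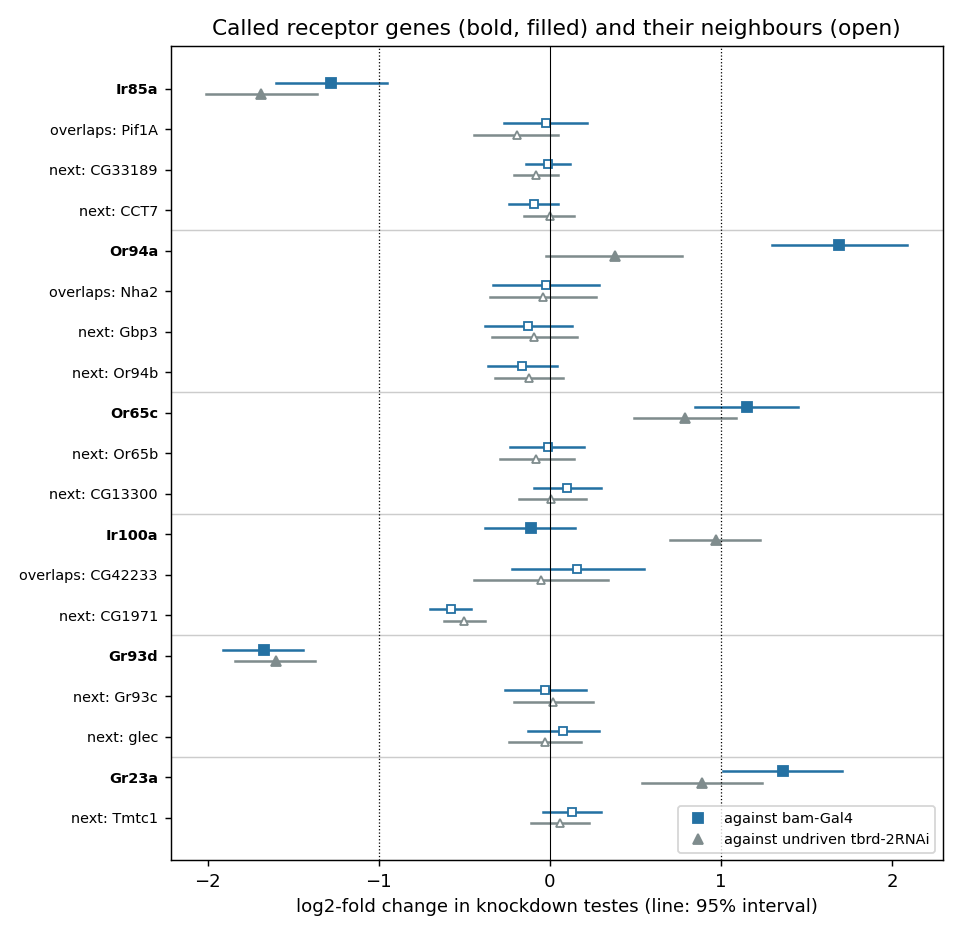
Log2-fold change in the knockdown (horizontal axis, lines are 95% intervals) against *bam*-Gal4 (blue squares) and undriven testes (grey triangles) for the 6 receptors called in any comparison (filled, bold names) and the genes that overlap or adjoin them (open). The open symbols all lie between −1 and 1, and only *CG1971* lies as far out as −0.58.

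By role, sugar receptors held 2 of 5 measured members at a mean of at least 6 (*Gr64f* and *Gr5a*) and none past the adjusted p against both controls. Of all probe sets, 5.88% were lower and 7.19% higher against both controls by the adjusted p, and 65.4% of all genes reached 6. Bitter receptors held 2 of 22 (*Gr32a* and *Gr22a*), with *Gr32a* and *Gr33a* lower and *Gr47a* higher against both (*Gr36a*, given above, was not on the list), and a median log2-fold change of −0.02 and −0.01. Carbon dioxide receptors held 1 of 2, and none of the 4 odorant receptors for fly pheromones reached 6, with *Or47b* the brightest at 4.82. Among 15 measured antennal ionotropic receptors, 2 reached 6 and *Ir76a* passed against both, with median differences of −0.13 and −0.15. Their mean per array was between 4.57 and 4.70 in the knockdown and between 4.76 and 4.90 in the controls. *Ir76a*, with differences of −0.85 and −0.93, is part of this mean. Over all 173 receptors the median differences were −0.04 and −0.07. The mean per array over all receptors leaned the same way, with a lowest value of 4.29 in the knockdown and 4.35 in the controls, but its ranges overlapped. Whether the antennal receptors differed as a group was not tested. The co-receptors *Ir25a*, *Ir8a* and *Ir76b* had means of 4.63, 4.28 and 3.89, and none passed.

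The odorant co-receptor gene *Orco* had a mean of 4.72 and differences of −0.07 and 0.07. Of 26 measured genes that work beside the receptors (odorant-binding proteins, membrane proteins, ppk and Trp channels and others), 4 reached 6, against 65.4% of all genes. These were *Obp56d* (mean 9.02), *Obp69a* (7.79), *Galphaq* (7.07) and *CheB38c* (6.12). *Snmp2*, a CD36-like membrane protein, was the only one of the 26 called. It was lower in *bam*-Gal4 than in undriven testes (log2-fold change −1.06, adjusted p = 0.0203), as were 0.206% of all probe sets. By the adjusted p alone, 1 of the 26 was lower and 1 higher against both controls, against 5.88% and 7.19% of all probe sets. *CheB38c*, of a family of proteins made in taste bristles, was at 5.47, 5.52 and 5.50 in the knockdown, at 6.44, 6.48 and 6.43 in *bam*-Gal4 and at 6.35, 6.63 and 6.23 in undriven testes. It was lower against both controls (−0.95 and −0.91, adjusted p = 0.000202 and 0.000262), just under the fold limit. The ion channel gene *ppk28*, which serves water taste, was higher by 0.62 and 0.55 (adjusted p = 0.00328 and 0.00649).

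Most neuronal markers were low as well, but not all. The mean per array over 13 measured neuronal genes was between 4.94 and 4.99 in the knockdown, 4.88 and 5.01 in *bam*-Gal4 and 4.87 and 4.93 in undriven testes. Of the 13, 3 reached 6, namely *Csp* (mean 8.24), *nSyb* (7.06) and *brp* (6.48). In the knockdown, *nSyb* was higher than in undriven testes by 0.50 (adjusted p = 0.0112). Against *bam*-Gal4 it did not pass (0.28, adjusted p = 0.109). The pan-neuronal gene *elav* had a mean of 4.60. Of the list, *brp*, which encodes a protein of the presynaptic active zone, was lower in the knockdown than in both controls. Its log2-fold changes were −1.03 against *bam*-Gal4 (adjusted p = 0.000571, called) and −0.92 against undriven (adjusted p = 0.00104). Higher against both by the adjusted p were *Snap25* (0.68 and 0.87), *Syn* (0.31 and 0.41) and *Csp* (0.31 and 0.46). The list thus held 1 lower and 3 higher of 13, against 5.88% and 7.19% of all probe sets. The part of neurons in the receptor values was not tested.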

How the data were processed

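The authors read the scanned arrays into R with the affy package and computed log2 expression values by RMA, and deposited 1 log2 value per probe set and array with 2 decimals. Versions are not stated in the sources used here. The methods describe a joint RMA run with published arrays for one comparison, and do not say which run gave the deposited values. No depth applies to arrays, and the number of arrays, 3 per genotype, limits the precision. P-values measure the spread between separately pooled RNA samples.

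Log2-fold changes, standard errors and p-values were computed from the deposited values with limma 3.58.1 in R 4.3.3 (lmFit, eBayes) with a mean per genotype, no covariate and no filter, over all 18952 probe sets (6 residual degrees of freedom, 9.23 with those borrowed by eBayes). Benjamini-Hochberg adjustment was applied within each of 3 comparisons, and both knockdown comparisons share the knockdown arrays. The procedure was tested on simulated data. Tables and figures were made with Python 3.11.15 and matplotlib 3.10.9.

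Of the probe sets, 13647 have 1 symbol in the platform annotation, 402 have several, and 4903 are not named here. Symbols were updated by Entrez identifier for 13544 probe sets through RefSeq genes (assembly Release 6 plus ISO1 MT), which also gave chromosome arms, overlaps and neighbours. Groups came from the sample labels.

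The members and gene lists were chosen with earlier results of these data known. Named were receptors with a mean of at least 6, called in a comparison, or past an adjusted p of 0.05 against both controls, the 3 brightest of the Gr with Grl, Or and Ir genes, the brightest of each role group, receptors whose probe sets differ in call, *Grl36a* (*CG31750* in the study), and the overlapping and nearest genes of those at 6 or called. From the other lists, members called or else the 3 brightest were to be named. *CheB38c*, *ppk28*, *Orco*, *elav*, the receptors of the *Gr93*, *Or65*, *Or94* and *Or22* clusters, *Gr21a* and the Ir co-receptors were named beside these after their values were seen. So were *sa*, *nSyb*, *Csp*, *Syn*, *Snap25*, *Obp56d*, *Obp69a* and *Galphaq*. A planned search of promoters for motifs was not run, since no promoter sequences were used here.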

Additional observations from a re-analysis of the deposited data

How the results depend on the processing

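The results were recomputed with a replicate block, with only the 6 arrays of a comparison in its fit, after a second quantile normalization or median centring, with filters on low means, eBayes with trend and robust settings, array weights, each array left out in turn, without knockdown replicate 3, *bam*-Gal4 replicate 2 and undriven replicate 3, other fold and level limits, and other probe sets per gene. Of the log2-fold changes of named receptors, 1356 kept their direction and their side of the limits for a call, 5 lost a call, 4 gained one and 33 changed sign. None of the 33 had an adjusted p under 0.05 with or without the change, and the values that changed sign were at most 0.11 in size. With single arrays left out, *Gr22a* ranged from −0.10 to 0.17 against *bam*-Gal4 and from −0.19 to 0.08 against undriven, *Ir25a* from −0.21 to 0.07 and from −0.11 to 0.17, and *Grl36a* from −0.06 to 0.01 against undriven. Between the controls, *Gr32a* ranged from −0.11 to 0.02, *Gr36a* from −0.10 to 0.01, *Grl36a* from −0.02 to 0.06, *Or47b* from −0.07 to 0.04, *Or67b* from −0.05 to 0.10 and *Or83c* from −0.08 to 0.01. A second quantile normalization turned *Gr22a* against *bam*-Gal4 to −0.02, *Grl36a* against undriven to 0.03, and between the controls *Or83c* to 0.00 and *Or47b* to 0.01. Median centring turned *Gr22a* against *bam*-Gal4 to −0.02, and *Gr36a* and *Or47b* between the controls to 0.01. Without the 3 arrays *Gr22a* against undriven and *Ir25a* against *bam*-Gal4 became 0.06, and between the controls *Or67b* became −0.01, *Or47b* 0.02 and *Grl36a* −0.00. *Ir41a* became 0.08 against *bam*-Gal4 with its second brightest probe set.

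The counts of called receptors were 5 and 2 against *bam*-Gal4 and undriven, and 2 between the controls. Leaving out probe sets with a mean under 5 gave 3 and 1, and under 6 gave 3, 1 and 1, since *Gr93d*, *Gr23a* and, in the latter, *Ir100a* were then not tested. Between the controls 1 was called without the 3 arrays, and 1 to 2 without any single array, because *Ir100a* fell to 0.92 in both cases. With no fold limit the counts were 20 and 26, and 6 of the receptors of at least 6 passed against both controls. With a fold limit of 0.5 the counts were 14, 13 and 4. The receptors reaching the level numbered 33 at a limit of 5, 1 at a limit of 7 and 7 with a mean of at least 6 in each genotype. *Gr5a* dropped below 6 without *bam*-Gal4 replicate 1 or 3, *Ir41a* with the mean of its probe sets, and *Ir100a* rose above it without any of the undriven arrays.

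Other calls moved for single genes. *Or65c* fell to 0.99 against *bam*-Gal4 without *bam*-Gal4 replicate 3. *Gr23a* was at 0.75 against *bam*-Gal4 with the mean of its probe sets and 0.68 with the second, and at 1.07 against undriven without the 3 arrays. *Ir100a* was called against undriven without undriven replicate 1 or 2 (1.04 in both), and *Ir76a* without undriven replicate 3 (−1.03). The deviations of same-numbered arrays correlated between −0.58 and 0.33, over 0.1 in 3 of 9 cases. Those of different-numbered arrays correlated between −0.52 and 0.55, over 0.1 in 5 of 18 cases. With 3 arrays per genotype, these values cannot tell whether the replicate numbers pair the samples. With the replicate block the counts of called receptors were 5, 2 and 2, and no receptor's call changed, but *Gr47a* against undriven (adjusted p = 0.0716) and *Or47a* against *bam*-Gal4 (0.0626) no longer passed the adjusted p.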

Other observations

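Of the 5 probe sets that name several genes with a receptor among them, the set for *COX6AL2* and *Ir75d* was bright, at 8.74, 8.84 and 8.66 in the knockdown, 9.35, 9.15 and 9.22 in *bam*-Gal4 and 9.55, 9.38 and 9.35 in undriven testes. It was lower in the knockdown by both comparisons (−0.49, adjusted p = 0.00319, and −0.68, adjusted p = 0.000591), and the signal cannot be assigned to either gene. The set for *Gr64d* and *Gr64e* had a mean of 5.65, and those for *Gr64b* with *Gr64c* and for *Or19a* with *Or19b* had means between 3.89 and 4.43. None of these 4 passed the test in any comparison.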
